A study of Mus musculus with 14 samples.

Results

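Reg1, Reg2 and Reg3d are 3 members of the mouse family of regenerating islet-derived genes, and they were followed here across 7 tissues. They were chosen by name, and the 4 further family genes with a tag are described after them. A tag entered a gene's value where the authors had given it a class code of 1 to 4 and the gene's UniGene cluster (Mm.142731 for Reg1, Mm.46360 for Reg2, Mm.33691 for Reg3d). These are 3 of the 22221 genes that received such a tag. All 14 libraries were made from C57BL6 mice. There was 1 from males and 1 from females for each of pancreas, stomach, parotid gland, liver, bone marrow, hippocampus and spinal cord. The female liver library was labelled as right lobe and the male one as left lobe, so sex and lobe cannot be told apart in liver. No genotype, treatment, age or number of animals was given, so a library may be 1 mouse or a pool. Each library is a list of 20-base tags read at the DpnII site nearest the 3′ end of a transcript, with the number of times each tag was seen.

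Reg proteins are small secreted proteins built on a C-type lectin fold. They were first found in regenerating pancreatic islets, but in the adult pancreas most of them are made by the acinar cells, which also secrete the digestive enzymes. Reg1 encodes the protein also called pancreatic stone protein or lithostathine, Reg2 is its closest mouse relative, and Reg3d is a relative of the islet neogenesis associated protein. Members of the Reg3 group are known from the gut as antibacterial lectins. In pancreatitis the family is known to be induced through cytokines that signal by Stat3, and Extl3 has been proposed as a receptor.

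The libraries held 2194028 to 3834568 counts each, 45337175 in all. Levels below, written CPM, are counts per 1000000 counts assigned to genes. Because 1 tag stands for 1 transcript, CPM does not grow with transcript length, but tags may be captured unequally, so the order of different genes by CPM is the order of their tags. Mean ± SD over a tissue is over its male and its female library (n = 2), so the SD holds the sex difference as well as other spread. The sex labels were checked first. The 4 Y-linked genes Ddx3y, Eif2s3y, Kdm5d and Uty summed to 28 to 221 counts in the 7 male libraries and to 0 to 2 in the 7 female libraries. Tags of Xist with codes 2 to 4 had 0 to 1 counts in the male libraries and 9 to 231 in the female libraries. In pancreas those Xist tags had 0 counts in the male library and 9 in the female library. A single code 1 tag listed under Xist had 554 counts in male pancreas and 361 in female pancreas, 0 in the other tissues except stomach, and was left out of this check.

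The 3 genes could be told apart by their tags. The most abundant tag of each gene, shown because nearly all of its value rests on it, was read from the deposited files with the DpnII site GATC in capitals. All 3 genes lie on chromosome 6.
Reg1: GATCctgtcttcctggagag
Reg2: GATCtcttttgccagaacat
Reg3d: GATCacatagacaaaggagc
These tags carried 99.1% of the counts of Reg1, 98.5% of Reg2 and 99.2% of Reg3d over the 14 libraries. The Reg1 and Reg2 tags differed at 9 of the 20 bases, the Reg1 and Reg3d tags at 13, and the Reg2 and Reg3d tags at 12. A minor Reg1 tag of class code 5, which was not counted, came within 1 base of the Reg2 tag.
Reg1, code 5: GATCttttttgccagaacat
The change is T6C, counted from 1 at the 5′ end and written from the Reg1 tag to the Reg2 tag. The minor Reg1 tag had 54 counts in male pancreas and 15 in female pancreas. The Reg2 tag had 2479 counts in male pancreas and 30 in female pancreas, so the near copy was small beside Reg2 in the male library and not in the female one.

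In GRCm38.p6 the genes stand side by side on chromosome 6 in the order Reg3b, Reg3d, Reg3a, Reg2, Reg1, the pseudogene Gm52853 and Reg3g, and Reg4 is on chromosome 3. The 250 bases before each annotated start are shown from RefSeq (build GRCm38.p6), since the 3 genes are highest in the same tissue. Capitals mark the E-box CACCTG, the TC-box TTCCCA, the TATA box TATAAA, and the E-box end of the composite described next, on either strand. In the acinar cell the factor complex PTF1, which contains Ptf1a and Rbpjl, is known to bind an E-box and a TC-box set a short way apart.
Reg1, chr6:78425733-78425982, plus strand: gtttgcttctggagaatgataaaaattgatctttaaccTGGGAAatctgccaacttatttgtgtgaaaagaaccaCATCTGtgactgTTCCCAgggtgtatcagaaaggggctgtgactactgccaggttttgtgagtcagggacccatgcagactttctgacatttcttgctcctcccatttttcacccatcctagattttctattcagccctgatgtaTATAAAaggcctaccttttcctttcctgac
Reg2, chr6:78404905-78405154, plus strand: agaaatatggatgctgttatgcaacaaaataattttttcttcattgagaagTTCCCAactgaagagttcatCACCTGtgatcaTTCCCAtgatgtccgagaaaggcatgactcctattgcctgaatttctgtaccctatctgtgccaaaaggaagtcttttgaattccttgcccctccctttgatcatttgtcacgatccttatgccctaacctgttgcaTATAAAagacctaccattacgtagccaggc
Reg3d, chr6:78378866-78379115, minus strand: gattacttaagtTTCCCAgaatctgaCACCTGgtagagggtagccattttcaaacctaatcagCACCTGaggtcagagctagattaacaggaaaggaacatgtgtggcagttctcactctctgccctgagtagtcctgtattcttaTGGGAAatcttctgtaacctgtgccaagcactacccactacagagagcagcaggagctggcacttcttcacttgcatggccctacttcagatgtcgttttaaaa
The composite of CANNTG, 6 further bases and TTCCCA was found from base -175 to -158 in Reg1 and from base -179 to -162 in Reg2, and not in the Reg3d window. It was present on either strand in 29 of 32851 windows of the same length, or 0.0883%. The Reg1 and Reg2 windows also both held TATAAA from base -30 to -25, a motif present in 12.4% of windows, and Reg3d held none. CACCTG occurred 1 time in Reg2 and 2 times in Reg3d, and 17.2% of windows hold it; TTCCCA, held by 21.6% of windows, occurred 2 times in each of the 3. A STAT-type site, TTCNNNGAA, stood in Reg3d from base -238 to -230, overlapping a TTCCCA, and is held by 7.02% of windows. The motifs were chosen with the sequences in view, and a match is a description of letters and not a binding site.

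**Figure D1:**
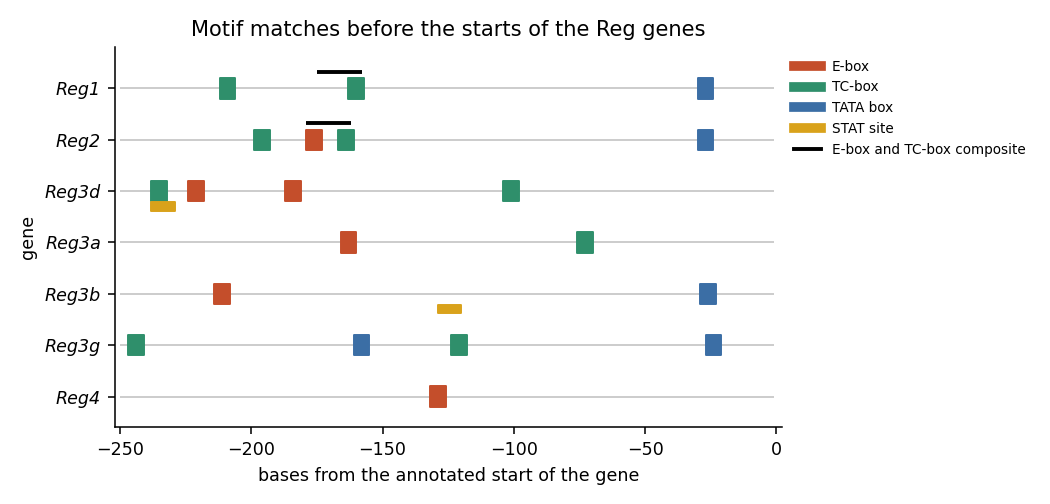
Positions of motif matches in the 250 bases before the start of the 7 Reg genes (x axis, bases from the annotated start; each row is a gene), with boxes for the E-box CACCTG, the TC-box, the TATA box and the STAT-type site and a black line for the composite. The composite and the TATA box stand at nearly the same places in Reg1 and Reg2 and in no other row together.

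Pancreas was the tissue in which all 3 genes had nearly all of their counts. Pancreas held 99.4% of the counts of Reg1 over the 14 libraries, 99.96% of those of Reg2 and 99.3% of those of Reg3d. Reg1 had 44516 counts (16788 CPM) in male pancreas and 15696 counts (5675 CPM) in female pancreas. The other 12 libraries together had 362 counts of Reg1, of which 352 were in stomach. No library outside pancreas and stomach had more than 3 Reg1 counts, and 5 of those 10 had 0. Reg1 therefore averaged 11231 ± 7859 CPM in pancreas, 85.0 ± 27.7 CPM in stomach, and 0 to 0.733 CPM in the other 5 tissues, which lay too close to 0 to be ordered at this depth.

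Reg2 had 2517 counts (949 CPM) in male pancreas and 30 counts (10.8 CPM) in female pancreas. Outside pancreas a single count was seen, in female parotid gland, and the other 11 libraries had 0. Depth allowed up to 3 counts in a library at 0, which is 0.867 to 1.56 CPM in the 12 libraries outside pancreas. Both pancreas libraries were thus above every other library, the female one by far the less of the pair.

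Reg3d had 635 counts (239 CPM) in male pancreas and 304 counts (109.9 CPM) in female pancreas, an average of 175 ± 91.6 CPM. It had 1 count in male stomach, 5 in female stomach and 1 in male spinal cord. The other 9 libraries had 0.

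**Figure D2:**
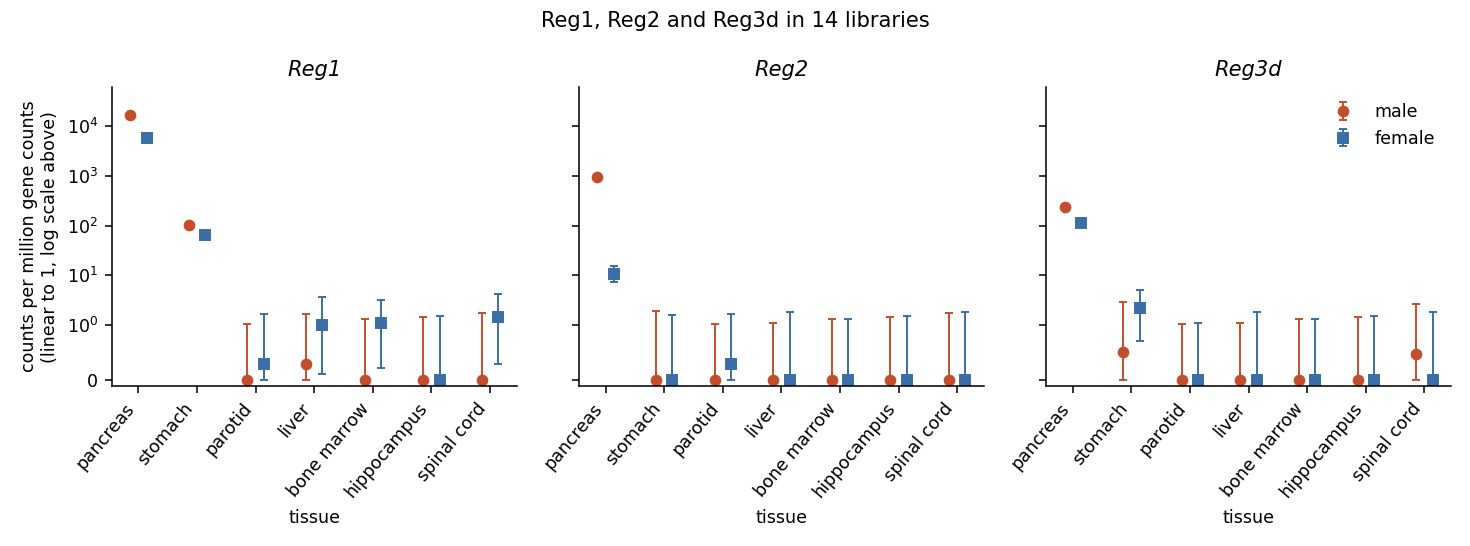
Level of Reg1, Reg2 and Reg3d in each of the 14 libraries, in CPM (y axis, linear up to 1 and logarithmic above) for each tissue (x axis), with male libraries as circles left of female libraries as squares and bars for the exact 95% interval of counting error. For each gene the male and the female pancreas points lie above all other points, and stomach is raised for Reg1.

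In edgeR's quasi-likelihood test over all 14 libraries, with Benjamini-Hochberg adjustment over 14682 genes, all 3 members were higher in pancreas than in the mean of the other 6 tissues, where 6.33% of all genes tested were called higher and 9.58% in either direction. The adjusted p was 1.97e-13 for Reg1, 2.44e-10 for Reg2 and 4.22e-12 for Reg3d. The fitted log2 differences were 16.69, 15.62 and 13.60 in that order of genes, but each rests on libraries at 0 and moves with the prior count, so the levels above are the better guide to size. Scaling to plain library totals put the 3 differences at 13.72, 12.76 and 10.53, while the median of all genes lay at -0.59 in the fit and at -3.26 with library totals. Without the male pancreas library the log2 difference of Reg2 was 9.64 (adjusted p = 0.000167) and without the female one it was 17.57.

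Reg1 was among the most abundant transcripts of both pancreas libraries by tag count, while the rank of Reg2 was very unlike in the 2 libraries. In male pancreas Reg1 ranked 12 of 9519 genes detected, Reg2 ranked 31 and Reg3d ranked 73. In female pancreas Reg1 ranked 18 of 10846 genes detected, Reg2 ranked 888 and Reg3d ranked 124. The 3 genes together made up 1.80% of gene counts in male pancreas and 0.580% in female pancreas. Of their summed counts Reg2 was 5.28% (exact 95% interval 5.08 to 5.48%) in male pancreas and 0.187% (0.126 to 0.267%) in female pancreas. In bulk tissue, fewer cells of a type and less RNA per cell cannot be told apart.

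All 3 genes had higher levels in male pancreas than in female pancreas, by very different factors. The ratio of male to female CPM was 87.5 for Reg2 (exact 95% interval 61.2 to 130.0), 2.96 for Reg1 (2.91 to 3.01) and 2.18 for Reg3d (1.90 to 2.51). These intervals cover counting error in 2 libraries and not the spread between animals, since each sex had 1 pancreas library. The same direction was seen in most tags of each gene. A second Reg1 tag had 377 counts in male pancreas and 92 in female pancreas, and a second Reg2 tag had 38 in male pancreas and 0 in female pancreas. A Reg1 tag of class code 12, which did not enter the Reg1 value, had 1966 counts in male pancreas and 545 in female pancreas.

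**Figure D3:**
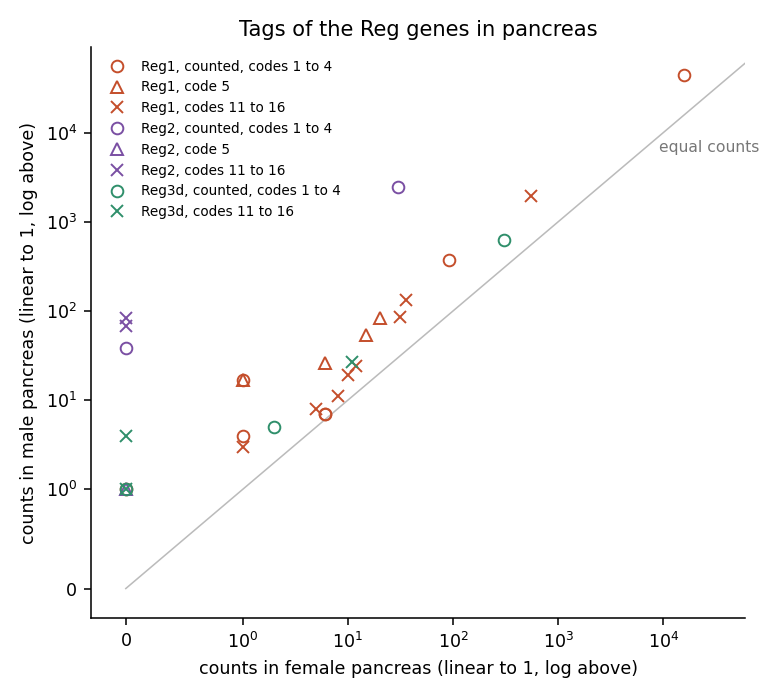
Counts of each Reg1, Reg2 and Reg3d tag in male pancreas (y axis) against female pancreas (x axis), both linear up to 1 and logarithmic above; circles are counted tags, triangles tags of code 5 and crosses tags of codes 11 to 16, while codes 21 to 26 are not drawn. The grey line marks equal counts, and all points drawn lie above it, with the main Reg2 tag farthest from it among tags seen in both libraries.

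The size of this difference was set beside the other transcripts of the same 2 libraries. Among the 192 genes with 300 or more counts over both pancreas libraries, Reg2 ranked 1, Reg1 ranked 2 and Reg3d ranked 3 by the ratio of male to female level. The median gene of these had a log2 ratio of -0.09, and the 5th and 95th percentiles were -0.64 and 0.52, against 6.43 for Reg2, 1.56 for Reg1 and 1.12 for Reg3d. With a minimum of 100 counts, which 492 genes met, Errfi1, an inhibitor of the EGF receptor, came between Reg2 and Reg1, with 79 counts in male pancreas and 26 in female pancreas. The 18 acinar enzyme genes lay from -0.48 to 0.52, so every one of them was below each Reg gene. The minimum of 300 counts was chosen after the values were seen, and ranks are given as a description.

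**Figure D4:**
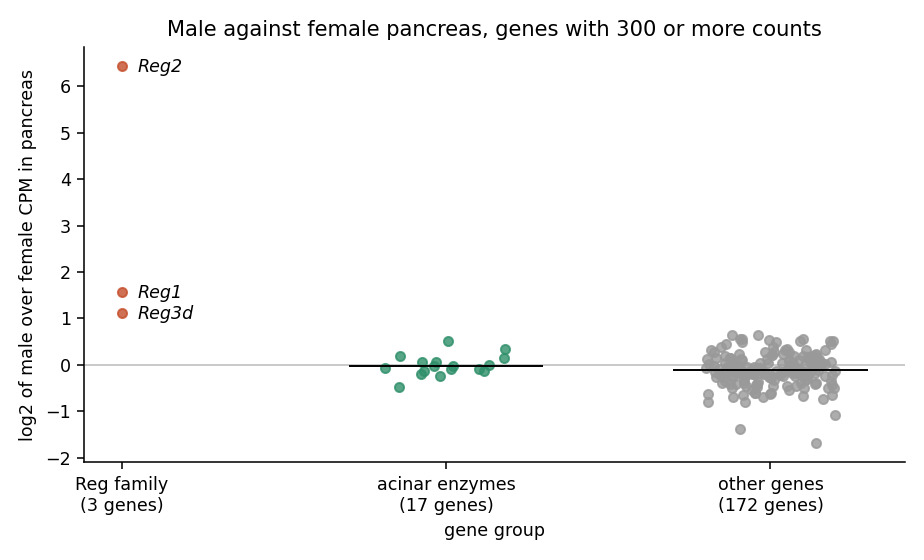
Log2 ratio of male to female CPM in pancreas (y axis) for the 192 genes with 300 or more counts over both libraries, split on the x axis into the 3 Reg genes, 17 acinar enzymes that met the minimum and 172 other genes; each point is a gene and black lines are medians. The 3 Reg genes stand above all other points, Reg2 at 6.43.

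None of these differences was called at an adjusted p under 0.05. With 1 library per sex, edgeR's quasi-likelihood test took its spread from the male and female pairs of the other tissues. For Reg2 the log2 difference was 6.77 (edgeR, adjusted p = 0.119), and it ranked 1 by p among the 14682 genes tested. For Reg1 it was 1.88 and for Reg3d 1.44 (edgeR, adjusted p = 1 for both). Over all genes 0 were called (0%), with 405 at an unadjusted p under 0.05, and DESeq2 called 2 and limma voom called 3. Reg2 was called by DESeq2 (adjusted p = 9.18e-14) and by limma voom (adjusted p = 0.00261). In edgeR it was also called when female or male hippocampus (adjusted p = 0.0248 for each), female spinal cord (0.0496), female stomach (2.01e-27) or male stomach (3.49e-24) was left out. Reg1 was called without female stomach (adjusted p = 0.00217) or male stomach (0.00232), and Reg3d likewise (0.00559 and 0.00745). The spread itself moved with the stomach pair: edgeR's common dispersion was 0.0858 over all libraries, 0.0194 without either stomach library, and 0.0922 to 0.108 without any other library outside pancreas. The calls without a stomach library, 12 over all genes without the female and 10 without the male one, were made at that smaller spread.

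Summed levels of marker lists are given side by side for the 2 pancreas libraries, without a test of the sums, and no tested gene of these lists was called between the sexes. The 18 acinar enzymes summed to 742675 CPM in male pancreas and 763435 CPM in female pancreas, with none at 0. The 9 intestinal markers other than Dmbt1, which acinar tissue also makes, summed to 1 count in male pancreas and 69 in female pancreas, with 8 of 9 at 0 in the male library and 2 of 9 in the female library. Fabp2, an intestinal fatty acid binding protein, had 0 counts in male pancreas and 24 in female pancreas. The 9 lymphoid and plasma cell markers summed to 67 counts in male pancreas and 170 in female pancreas, with 4 of 9 and 0 of 9 at 0. The 7 macrophage and neutrophil markers summed to 103 counts in male pancreas and 192 in female pancreas, with 5 and 4 at 0. Of 12 islet genes, the 10 found by symbol summed to 397 counts in male pancreas and 643 in female pancreas, with 1 at 0 in each. That gap lay in the glucagon gene Gcg, which had 141 counts in male pancreas and 382 in female pancreas. The other 9 islet genes summed to 256 counts in male pancreas and 261 in female pancreas. Most of these were Iapp, with 213 in male pancreas and 218 in female pancreas. Counted tags of the insulin genes were few, with 4 male and 0 female counts of Ins1 and 5 and 1 of Ins2. Tags may be captured or assigned unequally, so these counts do not show that insulin RNA was scarce. G6pc2 had 21 male and 11 female counts, while Pcsk2 had 0 and 8. The 8 duct markers summed to 115 counts in male pancreas and 153 in female pancreas, and the 9 stomach epithelium markers were at 0 in both. The part of these cell types in the difference of the Reg genes was not tested.

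The other 4 family members were scarce, and none passed the filter on low counts. Reg3a had 22 counts in male pancreas and 0 in female pancreas, and 1 in female spinal cord. Reg3b, which encodes the pancreatitis-associated protein, had 3 counts in male pancreas and 0 in female pancreas. Reg3g, an antibacterial lectin of the gut, had 3 counts in male pancreas, 1 in female pancreas, 2 in male stomach and 1 in male spinal cord. Reg4 had 1 count in male liver. Together these 4 genes had 28 counts in male pancreas and 1 in female pancreas.

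Stomach was the only other tissue with more than a few Reg1 tags. Reg1 had 201 counts (105 CPM) in male stomach and 151 counts (65.4 CPM) in female stomach, both above all 10 libraries of the other 5 tissues. In edgeR's quasi-likelihood test Reg1 was higher in stomach than in the other 5 tissues (log2 difference 7.99, adjusted p = 1.12e-08), as were 17.9% of all genes tested. Reg3d was also called, by a log2 difference of 4.60 (adjusted p = 0.00455), on 6 stomach counts. That call was lost without the female stomach library (2.54, adjusted p = 0.137) and in DESeq2 (adjusted p = 0.54). Reg2 had 0 counts in male stomach, 0 in female stomach and 1 in the other 5 tissues, so no fold is given.

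Set directly against stomach, all 3 genes were higher in pancreas, where 3.91% of genes tested were called higher. The log2 difference was 10.03 for Reg1 (edgeR, adjusted p = 1.69e-06) and 9.77 for Reg3d (adjusted p = 6.77e-07). Leaving out each library moved it from 8.61 to 10.95 for Reg1 and from 8.38 to 11.90 for Reg3d. Scaled to library totals the log2 differences were 6.98 for Reg1 and 6.78 for Reg3d, with the median of all genes at -3.32 in place of -0.54. By mean CPM Reg1 was 132 times as high in pancreas as in stomach. For Reg2 (adjusted p = 3.84e-06) the mean pancreas level was at least 677-fold higher than 3 counts over both stomach libraries, and the female pancreas level alone at least 15.3-fold higher. In DESeq2 Reg3d was not called (adjusted p = 0.238).

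The stomach level of Reg1 was set beside that of the acinar enzymes, because 16 of the 18 enzymes were also called higher in stomach than in the other 5 tissues. Mean stomach Reg1 was 0.757% of mean pancreas Reg1. The same percentage had a median of 1.03% over the 18 enzymes, and 7 of them were below Reg1. The amylase Amy2a was at 0.531%, the chymotrypsinogen Ctrb1 at 0.450%, the trypsinogen Prss2 at 0.620% and the elastase Cela2a at 1.23%. Colipase (Clps), at 250%, and phospholipase A2 group IB (Pla2g1b), at 3336%, were higher in stomach than in pancreas by mean CPM; the other 16 lay under 2.1%. For each 1000 Cpa1 counts there were 374 Reg1 counts in male stomach and 371 in female stomach, against 820 in male pancreas and 290 in female pancreas. For each 1000 Cel counts there were 914 Reg1 counts in male stomach and 335 in female stomach, against 1017 in male pancreas and 336 in female pancreas. For each 1000 Cpb1 counts there were 414 Reg1 counts in male stomach and 726 in female stomach, against 1444 in male pancreas and 538 in female pancreas. The male to female order of Reg1 per enzyme in stomach thus depended on the enzyme. Whether pancreatic tissue contributed to the stomach libraries was not tested.

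**Figure D5:**
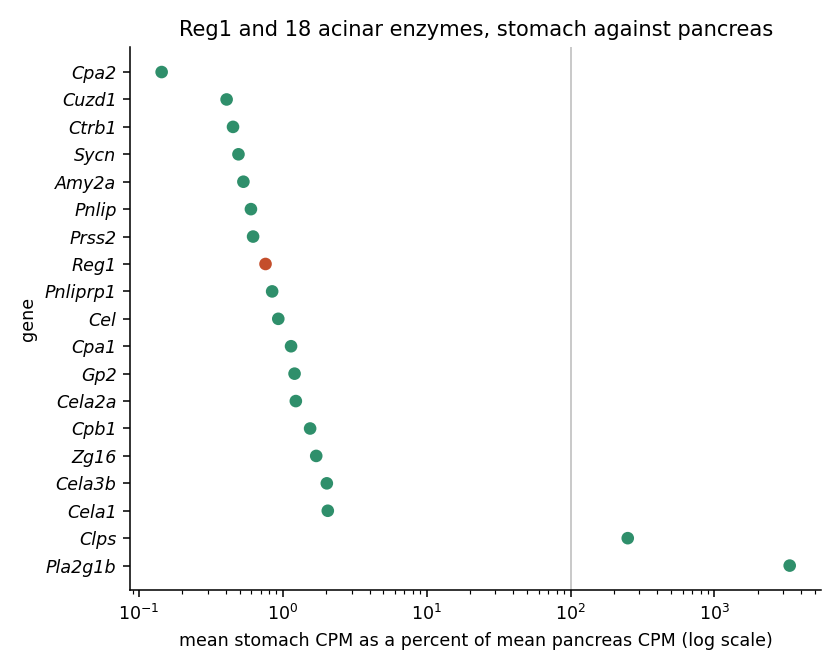
Mean stomach CPM as a percent of mean pancreas CPM (x axis, logarithmic) for Reg1 (orange) and 18 acinar enzymes (green), 1 gene per row; the grey line marks 100%. Reg1, at 0.757%, lies among 16 enzymes under 2.1%, while Clps and Pla2g1b lie past 100%.

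Genes whose pattern was most like that of each member were ranked by Pearson's r of log2(CPM + 1) over the 14 libraries. For Reg1 the closest 5 were acinar secretory genes. They were Cel (r = 0.994), the zymogen granule protein Gp2 (0.993), the carboxypeptidase Cpa1 (0.992), syncollin, Sycn (0.992), and the carboxypeptidase Cpb1 (0.990). For Reg2 the closest was G6pc2, the islet glucose-6-phosphatase (r = 0.953), with a mean of 5.95 CPM in pancreas. The elastase gene Cela3b (0.906), the serpin Serpini2 (0.893) and 2 clusters without a title (0.891 and 0.888) followed. For Reg3d the list held Cela3b (r = 0.995), 2 clusters without a title (0.994 and 0.993), a cluster titled as similar to Cuzd1 (0.992) and Cuzd1 itself (0.991), which encodes a zymogen granule protein. Between members r was 0.939 for Reg1 and Reg3d, 0.910 for Reg2 and Reg3d, and 0.819 for Reg1 and Reg2. These values are carried by the pancreas pair, in which the genes are high, against libraries near 0.

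Genes listed for the receptor Extl3 and the cytokine route to Stat3 had a low summed CPM in pancreas. CPM is a share of gene counts, and the 18 acinar enzymes alone held 742675 CPM in male pancreas and 763435 CPM in female pancreas. The 20 of 21 listed genes found by symbol summed to 53.2 CPM in male pancreas and 77.4 CPM in female pancreas, below all 12 other libraries (150 to 528 CPM). Of the 14 that passed the filter, 3 were called higher in pancreas than in the other 6 tissues and 0 lower in edgeR's quasi-likelihood test, beside 6.33% of all genes called higher. The median log2 difference was -0.28, against -0.59 over all genes. Scaled to library totals, 0 were called higher and 11 lower. Over all 14682 genes that scaling called 10626 in either direction and put the median at -3.26. The turn with the scaling was thus not particular to this list. Extl3 had 11.7 CPM in male pancreas and 20.6 CPM in female pancreas, against 20.8 CPM in male stomach and 26.4 CPM in female stomach and a mean of 60.9 CPM in hippocampus. Its log2 difference over the other 6 tissues was 2.56 (edgeR, adjusted p = 1.45e-06), and -0.47 with library totals (adjusted p = 0.232). Lifr, the receptor for leukaemia inhibitory factor, had 7.17 CPM in male pancreas and 13.7 CPM in female pancreas, against a mean of 147 CPM in liver (3.78, adjusted p = 1.25e-06; with library totals 0.78, adjusted p = 0.0792). Il11ra1, a receptor for interleukin 11, had 11.3 CPM in male pancreas and 19.5 CPM in female pancreas, against 53.1 CPM in male stomach and 138 CPM in female stomach. It was called higher than the other 6 tissues (1.04, edgeR, adjusted p = 0.0462) and lower with library totals (-1.98, adjusted p = 8.16e-05). Jak1, a kinase that phosphorylates Stat3, had 8.30 CPM in male pancreas and 4.34 CPM in female pancreas, without a call (-0.24, adjusted p = 0.885). Stat3 itself had 0 counts in both pancreas libraries, and its highest mean in another tissue was only 8.44 CPM, in liver. The cytokines Il6, Il11, Lif and Osm also had 0 counts in both pancreas libraries. Il6, Lif and Osm were at 0 CPM in both stomach libraries too. A count of 0 for these genes thus need not mean absence from pancreas. None of the 14 genes that passed the filter was called between the sexes.

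Of 17 genes listed for acinar injury and stress, 8 were called higher in pancreas than in the other 6 tissues and 0 lower, beside 6.33% of all genes called higher, with a median log2 difference of 1.91. Scaled to library totals, 3 were called higher, all among those 8, and 7 lower. That scaling called 10626 of all 14682 genes in either direction, with a median of -3.26. The list summed to 3482 CPM in male pancreas and 3492 CPM in female pancreas, against 10787 CPM in male stomach and 10639 CPM in female stomach. The 3 called under both scalings were Tff2, Spink1 and Nupr1. Tff2, a trefoil peptide, had 1963 CPM in male pancreas and 1772 CPM in female pancreas (14.82, adjusted p = 2.26e-12). Its level was 6565 CPM in male stomach and 6149 CPM in female stomach, and pancreas against stomach gave 1.20 (edgeR, adjusted p = 0.148), or -1.77 with library totals (adjusted p = 0.00282). Spink1, the secretory trypsin inhibitor, had 933 CPM in male pancreas and 802 CPM in female pancreas (15.01, adjusted p = 2.82e-13). Nupr1, a stress-induced nuclear protein of acinar cells, had 169 CPM in male pancreas and 356 CPM in female pancreas (7.89, adjusted p = 1.53e-12). Clusterin, Clu, had 143 CPM in male pancreas and 189 CPM in female pancreas, against means of 541 CPM in stomach and 1164 CPM in liver (2.64, adjusted p = 6.72e-08; with library totals -0.40, adjusted p = 0.269). The keratin Krt8 averaged 27.7 CPM in pancreas and 2243 CPM in stomach. None of the 17 was called between the sexes, and the median log2 difference of male against female was -0.08. Nupr1 was thus lower in the male library, while the Reg genes were higher there. The log2 ratio of male to female CPM was 0.15 for Tff2 and 0.22 for Spink1. Both lay between the 5th and 95th percentiles (-0.64 and 0.52) of the 192 genes with 300 or more pancreas counts. Nupr1, Tff2, Spink1 and the Reg genes were not called in edgeR over all 14 libraries.

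Acinar transcription factors were low in both pancreas libraries. Of 5 listed, 3 passed the filter. All 3 were called higher in pancreas than in the mean of the other 6 tissues, beside 6.33% of all genes. They were also called higher with library totals. That scaling called 10626 of all 14682 genes in either direction, with a median of -3.26. Rbpjl, the PTF1 subunit of the acinar cell, had 37.7 CPM in male pancreas and 54.6 CPM in female pancreas (11.19, adjusted p = 6.08e-12). Bhlha15, a regulator of secretory cells also called Mist1, had 37.3 CPM in male pancreas and 56.8 CPM in female pancreas (9.21, adjusted p = 2.53e-11), and its mean was higher in parotid gland, at 109.5 CPM. Gata4 had 1.13 CPM in male pancreas and 2.89 CPM in female pancreas (5.30, adjusted p = 0.000255), against a mean of 46.1 CPM in stomach. Ptf1a, the other PTF1 subunit, had 1.89 CPM in male pancreas and 5.06 CPM in female pancreas and was not tested. Nr5a2 had 0 counts in both pancreas libraries and was at 0 CPM in both stomach libraries. Whether its transcript gives a tag that could be counted was not tested. The 5 genes summed to 207 counts in male pancreas and 330 in female pancreas, the opposite order to the 3 Reg genes. The median log2 ratio of male to female level was also negative, at -0.14, over the 492 genes with 100 or more pancreas counts. None of the 3 factors tested was called between the sexes.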

How the data were processed

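The deposited files of the authors list each distinct 20-base tag with its raw count, a gene or position it was assigned to and a class code. Per the labels' protocols, cDNA was cut with DpnII and the tag at the 3′-most site was sequenced. No aligner, genome build or key to the codes is stated by the labels or files. A gene is here 1 UniGene cluster, and its value is the sum of its tags with codes 1 to 4. Of 22221 clusters, 12098 were named through an accession in RefSeq (GRCm38.p6), 270 by synonym and 29 by title. The other 9824 kept only a title and no symbol, so a listed gene not found by symbol may be among them. No tag had more than 1 assignment. Differences were tested on raw counts with edgeR 4.0.16 (quasi-likelihood test, TMM scaling, filterByExpr by tissue, terms for tissue and sex) in R 4.3.3, with calls at an adjusted p under 0.05 and at least 2-fold. On simulated data for pancreas against the other 6 tissues, 185 of 200 genes changed 4-fold were recovered, with 10 false calls over 14682 genes. All simulated libraries shared 1 mean profile and 1 dispersion, with changes up and down only in pancreas and only among genes with higher mean counts. The real tissues differ far more in composition and spread, so these figures do not give the error rate on the real libraries. DESeq2 1.42.0, limma 3.58.1 (voom), other scalings, filters and tag sets, and leaving out each library were tried. Nothing says that libraries of a tissue came from separate animals beyond their sex, so p-values measure the spread between these libraries. Intervals are exact (Clopper-Pearson) at 95%, and they and floors of 3 counts cover counting error only. Named genes were the members, the 5 genes most like each by Pearson's r, and of each list all genes up to 5 or otherwise up to 4 with the highest mean pancreas CPM; further genes named were chosen after their values were seen. The members and lists were chosen with earlier results of these data known.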

Additional observations from a re-analysis of the deposited data

Results flagged for a closer look

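Tags with class codes outside 1 to 4 were not part of the comparisons, and some of them carried a signal in pancreas. Reg1 tags of codes 11 to 16 had 2248 counts in male pancreas and 648 in female pancreas, 5.05% and 4.13% of the counted Reg1 tags. Reg2 tags of the same codes had 150 counts in male pancreas and 0 in female pancreas, and Reg3d tags had 32 in male pancreas and 11 in female pancreas. Reg1 tags of code 5 had 181 counts in male pancreas and 42 in female pancreas. Outside pancreas, codes 11 to 16 held 2 counts of Reg1 in male stomach, 3 in female stomach and 1 in another tissue, and 0 of Reg2 and Reg3d. Reg3d ran the other way in stomach from pancreas: the male to female ratio of CPM was 0.24 in stomach, on 1 and 5 counts, and 2.18 in pancreas. The difference between these 2 ratios was not tested.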

How the results depend on the processing

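The labels give no replicate numbers, and the fit's term for sex is the only pairing of libraries across tissues. Without that term no call of the members between tissues changed. For Reg1, Reg2 and Reg3d, pancreas stayed higher than the other 6 tissues and called under every alternative run. Leaving out each library put the log2 difference at 15.36 to 17.71 for Reg1, 9.64 to 17.57 for Reg2 and 12.44 to 14.76 for Reg3d. Against stomach the ranges were 8.61 to 10.95, 10.17 to 18.10 and 8.38 to 11.90, and Reg3d lost its call in DESeq2 (10.02, adjusted p = 0.238). For stomach against the other 5 tissues, Reg1 ranged from 7.69 to 8.79, and Reg3d from 2.54 to 6.08, losing its call without female stomach (2.54) and in DESeq2 (4.15). For male against female pancreas, Reg2 was called with library totals (6.45, adjusted p = 0.0226), no filter (6.75), DESeq2 (6.86) and limma voom (6.75), and with 5 single libraries left out. Leaving out libraries gave 6.74 to 6.82 for Reg2, 1.85 to 1.94 for Reg1 and 1.41 to 1.49 for Reg3d, the last 2 being called without either stomach library. The spread estimate without a stomach library is given above; the cause was not tested otherwise. With library totals in place of TMM, an alternative chosen after the data were seen, 0 in place of 3 genes of the receptor and cytokine list and 3 in place of 8 of the injury list were called higher in pancreas than in the other 6 tissues. Over all genes, calls for pancreas against the other 6 tissues numbered 1406 as reported, 10626 with library totals and 3514 with limma voom; against stomach 1711, 11378 and 3991; and between the sexes 0, 1 and 3, with 5 under no filter and 2 in DESeq2. Leaving out a library gave 572 to 2208, 670 to 3669, 3239 to 5247 (3455 as reported, stomach against the other 5 tissues) and 0 to 12. Reg3d has no code 1 tag, so code 1 alone gave it no value. Of the 5 genes most like each member, Spearman's rho kept 3 for Reg1, 2 for Reg2 and 1 for Reg3d, and log2(CPM + 10) kept 1, 3 and 3. Depth limits the tissues at 0 to a bound of 3 counts.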
